A study of Mus musculus with 12 samples.

Results

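The 28 genes described here make cholesterol from acetyl-CoA, sense it, move it inside the cell or export it. They were taken by symbol from the gene names of the array (Sc4mol, an older name, counts as Msmo1). A gene with several probes was read from its brightest one, by mean. Of the 28, 27 passed the filter on dim probes, out of 23795 genes that did. Lss, lanosterol synthase, failed it: its probe was well above background on 5 of 12 arrays, so it enters no test. Levels are given as the log2 of the processed signal minus the 75th percentile of that array, in log2 units, and are compared only within a gene. The arrays measured LSK cells, the lineage-negative, Sca-1 positive and Kit positive fraction, in which haematopoietic stem cells and early progenitors lie. All mice were male DBA2/J, and each of 4 groups had 3 arrays. Nothing in the labels ties each array to a mouse of its own; the p-values cover the spread between arrays, and that may be technical. The blood groups were LSK cells from mice given G-CSF, the growth factor of granulocytes (5 days, 9 injections), from mice given CWHM-823, a VLA-4 inhibitor, with tGro-b, a truncated CXCR2 agonist (no time in the labels), and from mice given AMD3100, a CXCR4 antagonist (1 hour). The fourth group was LSK cells from the bone marrow of mice injected with PBS. Blood of untreated mice was not analysed here, so in every comparison with marrow the treatment and the tissue cannot be told apart. In such bulk samples, fewer cells of a type and less RNA per cell cannot be told apart either.

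Cholesterol is built in 3 stretches. The mevalonate enzymes turn acetyl-CoA into 5-carbon isoprenoids and join them to farnesyl diphosphate, squalene synthase and squalene epoxidase lead to the first sterol, and a last set of enzymes trims lanosterol to cholesterol. SREBP2, encoded by Srebf2, switches these genes on when membranes of the endoplasmic reticulum are low in sterol: Scap escorts it to the Golgi for cleavage, and the Insig proteins hold Scap back when sterol is plentiful. Sterol surplus instead activates the LXR receptors, which raise the exporters Abca1 and Abcg1. In haematopoietic stem and progenitor cells, high membrane cholesterol and low efflux are known to go with stronger growth factor signalling and myeloid expansion.

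The signal at the 75th percentile was 1146 to 2724 across the 12 arrays, and 70.7 to 83.3% of probes were well above background. All 6 LSK markers were measured, with a summed signal (in multiples of the array's 75th percentile) of 33.0 to 40.4 in G-CSF blood, 26.7 to 37.8 in CWHM-823 plus tGro-b blood and 24.0 to 31.2 in AMD3100 blood, against 25.3 to 34.0 in marrow. Neutrophil markers (8 measured of 10) summed to 2.73 to 3.02 in G-CSF blood, 2.02 to 3.22 in CWHM-823 plus tGro-b blood and 2.84 to 4.33 in AMD3100 blood, against 2.86 to 30.0 in marrow, where array 3 held the highest sum. Counts and medians against marrow are also given without that array. The arrays numbered alike lay on 1 slide, and they deviated together. The fit without the slide is therefore followed by the fit with the slide as a block wherever that changes a call. Each ± SE is from the fit without the block, also where it stands beside a blocked adjusted p.

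**Figure D1:**
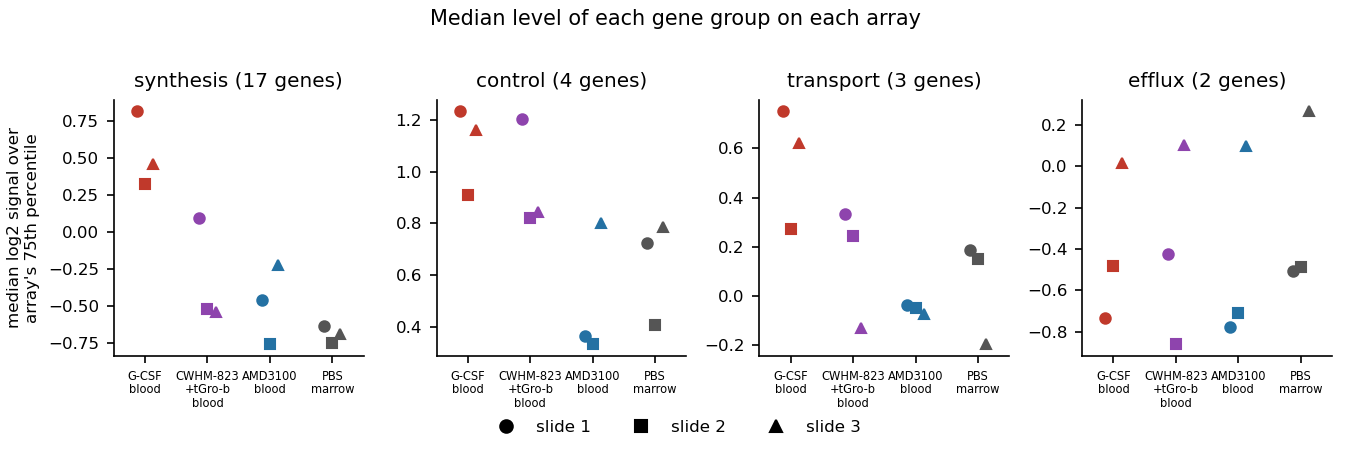
Median log2 signal over the array's 75th percentile (y axis) of the synthesis, control, transport and efflux genes on each of the 12 arrays, by group (x axis), with a marker shape for each slide. The 3 G-CSF arrays had synthesis medians of 0.32 to 0.82, above the 9 other arrays; the efflux medians of the 4 groups overlapped.

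In G-CSF blood, cholesterol synthesis genes had higher mean levels than in marrow, and 1 of them passed the test without the slide as a block. All 17 measured synthesis genes had a positive log2 difference, with a median of 0.87, while the median over all 23795 genes was -0.25. Fdps, farnesyl diphosphate synthase, passed the test (limma, 2-sided, Benjamini-Hochberg over all genes, adjusted p under 0.05), and no other member did; over all genes 1.74% passed, 1.18% as higher. With the slide as a block, 11 of the 27 members passed, all higher (40.7%), against 19.5% of all genes, 8.24% as higher. The 3 G-CSF arrays lay above all 3 marrow arrays for 13 of 27 members (48.1%), as they did for 11.7% of all genes. On every slide the G-CSF array was the higher one for 20 members (74.1%), against 24.5% of all genes. The members were picked with earlier results of these arrays known, so these shares are no independent evidence. In the same comparison mast cell and basophil markers (4 measured of 6) summed to 4.25 to 5.42 in G-CSF blood and 1.36 to 2.56 in marrow, with 2 that rose. Dendritic cell markers (6 measured of 7) summed to 27.8 to 37.4 in G-CSF blood and 42.5 to 52.8 in marrow, with 3 that fell. Of 7 measured of 9 erythroid markers, 1 rose and 3 fell, with sums of 9.22 to 9.55 in G-CSF blood and 6.01 to 8.39 in marrow. The median difference over the 7 was -1.21, while Hba-a1, an alpha globin, was at 2.68, 2.74 and 2.80 in G-CSF blood and -1.28, -1.39 and -0.05 in marrow. Among the 6 LSK markers 2 rose and 0 fell. The part of these cell types in the result was not tested. Without marrow array 3 the synthesis median was 0.99 and none of the members passed. The median difference of the synthesis genes over that of all genes was 1.12 and stood at 0.73 to 1.12 under the scalings, filters and probe choices tried.

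Among the mevalonate enzymes, Fdps makes the 15-carbon isoprenoid from which both sterols and prenyl groups are drawn. Its level was 0.82, 0.56 and 0.46 in G-CSF blood, 0.32, -0.62 and -0.60 in CWHM-823 plus tGro-b blood and -0.46, -0.49 and -0.80 in AMD3100 blood, against -0.63, -1.20 and -0.84 in PBS marrow. Every G-CSF array lay above the 9 other arrays, while the CWHM-823 plus tGro-b and AMD3100 arrays overlapped. The log2 difference of G-CSF blood from marrow was 1.5 ± 0.29 (± SE, n = 3 arrays each; limma, adjusted p = 0.0232), a 2.84-fold difference, and the blocked adjusted p was 0.00409. The call was lost without marrow array 2 or 3 or without G-CSF array 1 or 3, where the adjusted p was 0.0645 to 0.12. Against AMD3100 blood the difference was 1.19 ± 0.29 (limma, adjusted p = 0.0159), and this call was lost without G-CSF array 1 (0.0666). Only 1 probe stands for this gene. The scanner output places it on mm9 at chr10:93242421-93242480, whereas the gene table has Fdps on chromosome 3. Because the one call against marrow rests on it, the 60 bases of that probe are shown.
Fdps probe: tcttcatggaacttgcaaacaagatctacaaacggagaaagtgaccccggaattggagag

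Hmgcs1, which joins acetyl-CoA to acetoacetyl-CoA at the entry to the pathway, was at 2.24, 1.86 and 1.64 in G-CSF blood, 2.24, 1.47 and 1.20 in CWHM-823 plus tGro-b blood and 1.60, 0.90 and 1.12 in AMD3100 blood, against 1.01, 0.56 and 0.19 in PBS marrow. G-CSF and CWHM-823 plus tGro-b arrays all lay above the marrow arrays, and the AMD3100 arrays overlapped them. Log2 differences from marrow were 1.33 ± 0.33 in G-CSF blood, 1.05 ± 0.33 in CWHM-823 plus tGro-b blood and 0.62 ± 0.33 in AMD3100 blood. None passed without the block (limma, adjusted p = 0.0701, 0.434 and 0.339 in that order), and each passed with it (0.00314, 0.0241 and 0.0431). Against AMD3100 blood the G-CSF difference was 0.71 ± 0.33 (limma, adjusted p = 0.11, 0.00723 with the block). Its second, dimmer probe gave -0.22 ± 0.46 for G-CSF blood against marrow and did not pass (limma over all probes, adjusted p = 0.773).

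Idi1, which interconverts the 5-carbon isoprenoids, was at 0.16, -0.34 and 0.35 in G-CSF blood, -0.11, -0.82 and -0.54 in CWHM-823 plus tGro-b blood and -1.06, -1.13 and -0.22 in AMD3100 blood, against -0.80, -1.57 and -0.69 in PBS marrow. The G-CSF arrays lay above all marrow arrays but overlapped both other blood groups. Its difference from marrow of 1.08 ± 0.34 passed only with the slide as a block (blocked adjusted p = 0.0193, limma), as did that from AMD3100 blood of 0.86 ± 0.34 (limma, adjusted p = 0.0704, 0.0101 with the block). Acat2, the cytosolic thiolase that makes acetoacetyl-CoA, was at 4.90, 4.53 and 4.69 in G-CSF blood, 4.63, 4.18 and 4.39 in CWHM-823 plus tGro-b blood and 4.23, 3.70 and 4.14 in AMD3100 blood, against 4.05, 3.94 and 4.32 in PBS marrow. G-CSF arrays stood above the marrow and AMD3100 arrays without overlap; the gene rose against AMD3100 blood (0.69 ± 0.24, limma, adjusted p = 0.0477) and passed against marrow only with the block (0.0328). Pmvk, phosphomevalonate kinase, was at 1.32, 1.20 and 1.33 in G-CSF blood, 1.02, 0.67 and 1.05 in CWHM-823 plus tGro-b blood and 0.32, 0.93 and 0.51 in AMD3100 blood, against 1.03, 1.1 and 0.86 in PBS marrow. The AMD3100 arrays held the 2 lowest values, and the G-CSF difference from AMD3100 blood was 0.70 ± 0.23 (limma, adjusted p = 0.0397). Its other probe gave -0.21 ± 0.25 for the same comparison. With each array of any group left out in turn, the call against AMD3100 blood held in 2 of 12 cases for Acat2 and 6 of 12 for Pmvk. Mvk, mevalonate kinase, and Mvd, mevalonate diphosphate decarboxylase, passed in none of the 6 comparisons, with or without the block. Their differences from marrow in G-CSF blood were 0.32 ± 0.26 for Mvk and 0.06 ± 0.36 for Mvd.

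**Figure D2:**
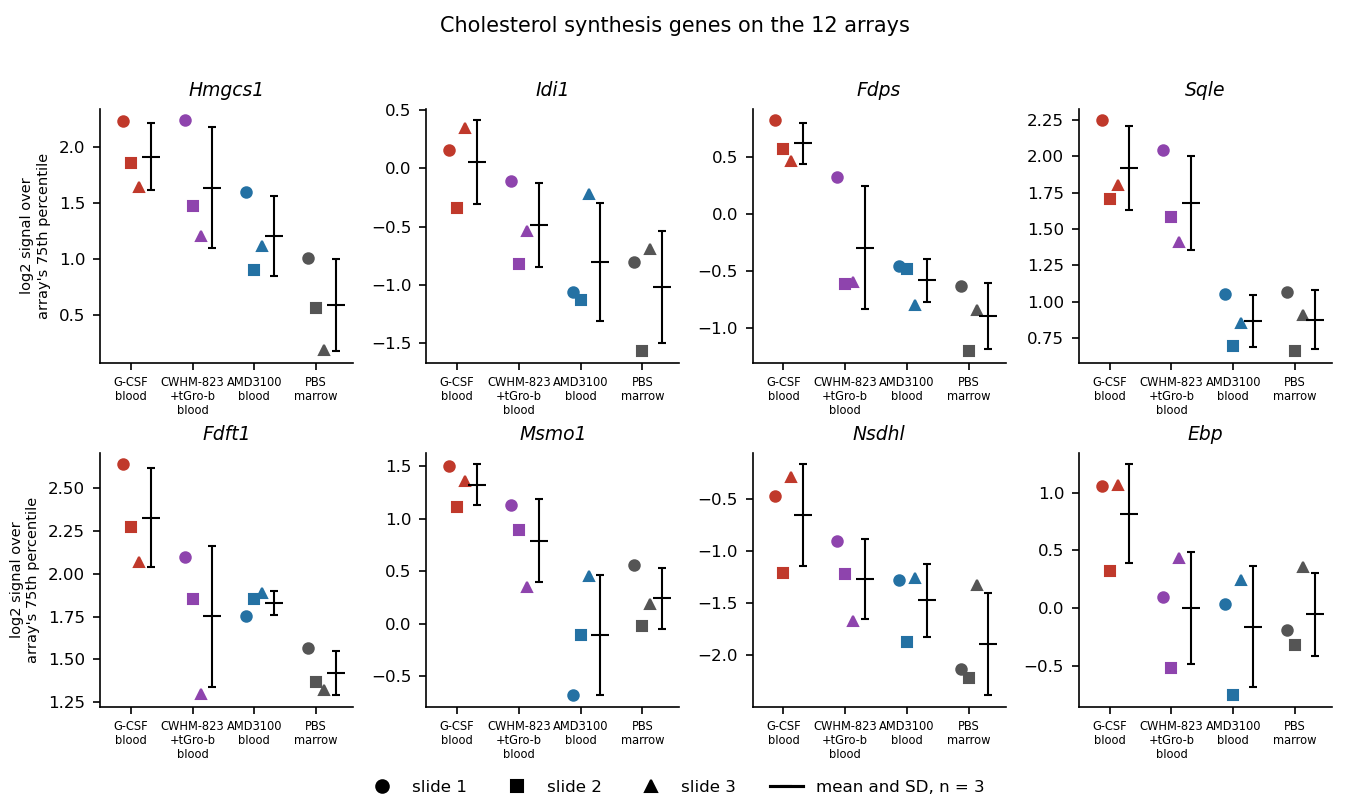
Log2 signal over the array's 75th percentile (y axis) of 8 synthesis genes in the 4 groups (x axis). Points are arrays, with 1 marker shape per slide, and bars give the mean and SD of 3 arrays; Sqle reached 1.41 or more on every G-CSF and CWHM-823 plus tGro-b array and at most 1.06 on the AMD3100 and marrow arrays.

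At the step to squalene, Sqle separated the groups into pairs. Sqle, squalene epoxidase, a rate-controlling enzyme of the later pathway, was at 2.25, 1.70 and 1.80 in G-CSF blood, 2.04, 1.58 and 1.41 in CWHM-823 plus tGro-b blood and 1.05, 0.69 and 0.85 in AMD3100 blood, against 1.06, 0.66 and 0.90 in PBS marrow. All 6 arrays of G-CSF and CWHM-823 plus tGro-b blood lay above all 6 arrays of AMD3100 blood and marrow. G-CSF blood exceeded AMD3100 blood by 1.05 ± 0.25 (limma, adjusted p = 0.0157), and this was lost without G-CSF array 1 or AMD3100 array 2 (adjusted p up to 0.0694). Against marrow the G-CSF difference was 1.04 ± 0.25, and that of CWHM-823 plus tGro-b blood was 0.80 ± 0.25; both passed with the slide as a block only (limma, blocked adjusted p = 0.0057 and 0.0438). AMD3100 blood differed from marrow by -0.01 ± 0.25. Between CWHM-823 plus tGro-b and AMD3100 blood the difference was 0.81 ± 0.25 (limma, adjusted p = 0.157, with the block 0.022).

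Fdft1, squalene synthase, was at 2.64, 2.27 and 2.07 in G-CSF blood, 2.10, 1.85 and 1.30 in CWHM-823 plus tGro-b blood and 1.75, 1.85 and 1.89 in AMD3100 blood, against 1.56, 1.37 and 1.32 in PBS marrow. G-CSF arrays lay above all AMD3100 and marrow arrays. The difference from marrow of 0.91 ± 0.25 passed only with the block (0.0197, limma). Against AMD3100 blood the G-CSF difference was 0.50 ± 0.25 (limma, adjusted p = 0.135, 0.045 with the block). Both probes of Fdft1 gave a like difference, 0.91 ± 0.26 for the brighter one used and 0.79 ± 0.35 for the other, although the scanner output places them 44399663 bases apart on mm9 chromosome 14, at chr14:19364899-19364958 and chr14:63764562-63764621. They are shown since the 2 placements cannot both lie in 1 gene.
Fdft1 probe used: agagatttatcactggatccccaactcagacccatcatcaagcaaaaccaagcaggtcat
Fdft1 other probe: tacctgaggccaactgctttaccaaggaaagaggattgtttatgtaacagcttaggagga
Lss, the enzyme that closes the ring, had values of -6.39 to -2.79 over the 12 arrays and was well above background on 2 G-CSF arrays, 1 CWHM-823 plus tGro-b array, 0 AMD3100 arrays and 2 marrow arrays.

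Of the 8 enzymes that turn lanosterol into cholesterol, Msmo1, Nsdhl and Ebp passed against marrow in G-CSF blood with the block, where 8.24% of all genes passed as higher. Against AMD3100 blood Msmo1 and Sc5d passed without it, where 12.6% of all genes passed as higher and 31.1% in either direction. Msmo1, the sterol C4 methyl oxidase, was at 1.5, 1.12 and 1.36 in G-CSF blood, 1.13, 0.89 and 0.35 in CWHM-823 plus tGro-b blood and -0.68, -0.11 and 0.46 in AMD3100 blood, against 0.56, -0.02 and 0.19 in PBS marrow. Each G-CSF array exceeded every AMD3100 and marrow array. Its difference from AMD3100 blood was 1.43 ± 0.32 (limma, adjusted p = 0.0126; 0.0543 without G-CSF array 1) and that from marrow was 1.08 ± 0.32 (limma, blocked adjusted p = 0.0453). Sc5d, the sterol C5 desaturase, was at -2.11, -2.75 and -2.42 in G-CSF blood, -2.55, -2.36 and -3.16 in CWHM-823 plus tGro-b blood and -5.57, -3.09 and -3.62 in AMD3100 blood, against -3.99, -3.34 and -3.84 in PBS marrow. AMD3100 array 1 was the lowest of the 12, and the G-CSF arrays lay above all AMD3100 and marrow arrays. The G-CSF difference from AMD3100 blood was 1.67 ± 0.52 (limma, adjusted p = 0.0345); it was 0.93 without AMD3100 array 1, and the call was lost without that array or G-CSF array 1 or 3. Sc5d was well above background on all 3 arrays of G-CSF and CWHM-823 plus tGro-b blood, on 2 AMD3100 arrays and on 1 marrow array. It passed the filter on dim probes only through the groups where it was higher. Its calls and its place in the counts without overlap are therefore no support.

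Nsdhl, the decarboxylating dehydrogenase that acts after Msmo1, was at -0.47, -1.21 and -0.29 in G-CSF blood, -0.90, -1.22 and -1.67 in CWHM-823 plus tGro-b blood and -1.28, -1.88 and -1.26 in AMD3100 blood, against -2.13, -2.23 and -1.33 in PBS marrow. Ebp, the sterol isomerase that shifts the ring double bond, was at 1.06, 0.32 and 1.07 in G-CSF blood, 0.09, -0.52 and 0.43 in CWHM-823 plus tGro-b blood and 0.03, -0.76 and 0.24 in AMD3100 blood, against -0.20, -0.32 and 0.35 in PBS marrow. Both were higher in the G-CSF array on every slide against marrow, by 1.24 ± 0.35 for Nsdhl and 0.87 ± 0.36 for Ebp. Each of these passed with the block only (limma, 0.0262 and 0.0159). The second Nsdhl probe gave 0.57 ± 0.53 against marrow. For G-CSF against AMD3100 blood it gave 2.08 ± 0.53 (limma over all probes, adjusted p = 0.0189). There the probe used gave 0.82 ± 0.35 (limma, adjusted p = 0.0833, 0.0344 with the block). The second probe was well above background on 9 arrays only. It was lowest on the AMD3100 arrays (-3.90, -5.70 and -3.86). Its difference from AMD3100 blood thus rests on a signal near background and is no support. For Ebp the difference from AMD3100 blood was 0.98 ± 0.36 (limma, adjusted p = 0.0541, 0.0025 with the block). Ebp was the one member that passed between G-CSF and CWHM-823 plus tGro-b blood, and only with the block (0.82 ± 0.36, limma, blocked adjusted p = 0.044). That call was lost with the block and quantile normalization together.

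Cyp51, lanosterol demethylase, was a dim probe. Its values were -4.70, -3.43 and -3.05 in G-CSF blood, -3.28, -2.97 and -3.38 in CWHM-823 plus tGro-b blood and -5.07, -5.13 and -3.79 in AMD3100 blood, against -4.73, -4.70 and -3.68 in PBS marrow. The probe was well above background on 3 CWHM-823 plus tGro-b arrays, 2 G-CSF arrays, 0 AMD3100 arrays and 1 marrow array. It thus passed the filter only through CWHM-823 plus tGro-b blood, where it was highest, so a call as higher there is no support. In CWHM-823 plus tGro-b blood it was at least 1.35-fold higher than in AMD3100 blood, a bound that sets each dim array at the lowest signal above background or its own value if higher (limma, adjusted p = 0.167, 0.0348 with the block). With the block it also passed as higher in G-CSF than in AMD3100 blood (limma, adjusted p = 0.135, 0.0461 with the block). Tm7sf2, Hsd17b7 and Dhcr7, the remaining enzymes of this stretch, passed in no comparison under either fit. Dhcr7, the last enzyme to cholesterol, had group means of -1.04 in G-CSF blood, -1.05 in CWHM-823 plus tGro-b blood and -1.02 in AMD3100 blood, against -1.08 in marrow, with an SE of 0.28 on each difference. For Hsd17b7 and Tm7sf2, the 2 probes of the gene differed in sign for G-CSF against AMD3100 blood (0.58 and -0.65, and -0.31 and 0.44), with the probe used given first.

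SREBP2 works through short promoter sites next to NF-Y and Sp1 boxes, so the RefSeq promoters of the members (GRCm38.p6, 250 bases before to 50 after the start) were searched on both strands. An entry was matched for 22 of 28 members. Fdps, the one gene called against marrow without the block, had none, nor did Fdft1, Sqle, Npc1, Stard4 and Abcg1. The sterol response element was searched only as the letters TCACNCCAC, so sites with other letters were not counted. These letters were in 1 of the 22 promoters, that of Hmgcs1, and in 1.22% of all 27025 promoters. NF-Y boxes (CCAAT) were in 18 of 22 (81.8%), against 37.9% of all promoters and 39.0% of those of protein-coding genes. Sp1 boxes (GGGCGG) were in 19 of 22 (86.4%), against 35.9% of all promoters and 46.3% of protein-coding ones. E-boxes (CACGTG) were in 5 of 22 (22.7%) and 7.24% of all. A match is a description of the letters and shows no binding. The promoters of 3 synthesis genes that passed against marrow in G-CSF blood only with the block are printed, beside that of the exporter Abca1. They run 5′ to 3′ on the gene's strand, with the sterol response element and the NF-Y boxes in capitals.
Hmgcs1 (chr13:119690101-119690400, plus strand): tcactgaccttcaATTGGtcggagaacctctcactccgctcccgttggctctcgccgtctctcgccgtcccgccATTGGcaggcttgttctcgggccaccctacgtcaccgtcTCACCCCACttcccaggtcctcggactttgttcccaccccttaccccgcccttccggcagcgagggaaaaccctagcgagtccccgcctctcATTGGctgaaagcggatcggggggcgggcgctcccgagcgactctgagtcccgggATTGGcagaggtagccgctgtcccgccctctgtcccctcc
Msmo1 (chr8:64733529-64733828, minus strand): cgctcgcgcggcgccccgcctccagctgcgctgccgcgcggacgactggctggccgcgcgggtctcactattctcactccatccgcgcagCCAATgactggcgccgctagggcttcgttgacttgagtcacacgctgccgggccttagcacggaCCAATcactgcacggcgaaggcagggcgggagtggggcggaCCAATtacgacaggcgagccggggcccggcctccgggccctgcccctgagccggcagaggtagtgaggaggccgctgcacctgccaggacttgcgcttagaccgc
Nsdhl (chrX:72918271-72918570, plus strand): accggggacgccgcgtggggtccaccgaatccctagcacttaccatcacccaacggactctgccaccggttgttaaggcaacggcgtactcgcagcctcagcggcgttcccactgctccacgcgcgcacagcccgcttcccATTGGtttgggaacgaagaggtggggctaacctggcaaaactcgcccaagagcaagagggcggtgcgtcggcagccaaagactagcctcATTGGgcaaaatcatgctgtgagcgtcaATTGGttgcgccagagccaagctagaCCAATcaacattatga
Abca1 (chr4:53159846-53160145, minus strand): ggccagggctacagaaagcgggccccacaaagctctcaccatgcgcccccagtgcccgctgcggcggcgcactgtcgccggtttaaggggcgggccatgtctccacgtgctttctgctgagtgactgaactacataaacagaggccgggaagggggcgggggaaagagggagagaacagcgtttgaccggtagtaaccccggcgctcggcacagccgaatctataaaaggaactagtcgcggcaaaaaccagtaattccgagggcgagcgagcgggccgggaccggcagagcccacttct
In Hmgcs1 the element TCACCCCAC, the stricter form found in 0.522% of all promoters, began at -137 from the start, between NF-Y boxes at -176 and -45. Msmo1 held NF-Y boxes at -160, -96 and -55, and Nsdhl at -109, -20, 9 and 35. No NF-Y box was found in the Abca1 window, and none in those of Acat2, Dhcr7 and Scap. Members that passed against marrow in neither fit held such boxes too. Mvk had 5, Hsd17b7 and Insig2 had 3 each and Mvd had 2.

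**Figure D3:**
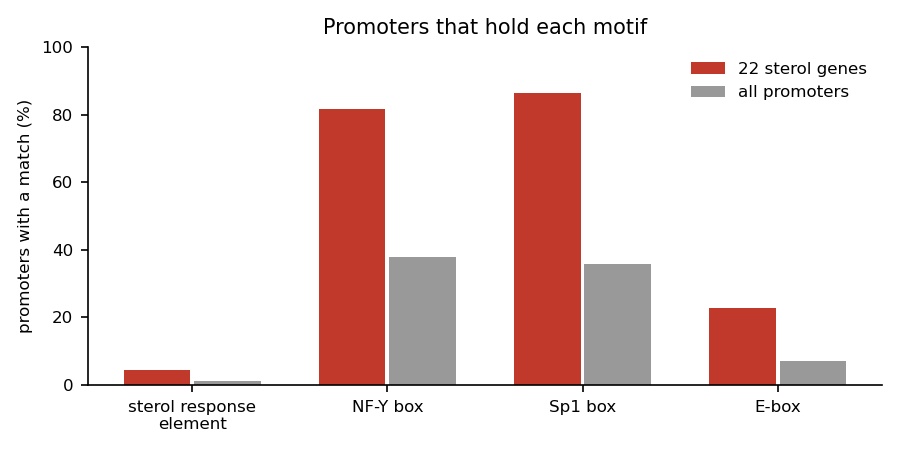
Share of promoters with at least 1 match to each motif (y axis, percent) for the 22 sterol genes with a promoter entry and for all 27025 promoters. NF-Y boxes were in 81.8% of the sterol gene promoters and 37.9% of all promoters. The sterol response element, searched only as TCACNCCAC, was in 1 of the 22.

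Of the 4 control genes, Scap and Insig2 passed in G-CSF against AMD3100 blood, where 12.6% of all genes passed as higher, and none passed against marrow without the block. Srebf2, the SREBP2 gene itself, was at 2.56, 2.08 and 2.74 in G-CSF blood, 2.85, 2.10 and 2.91 in CWHM-823 plus tGro-b blood and 2.19, 1.99 and 2.82 in AMD3100 blood, against 2.29, 1.37 and 2.49 in PBS marrow. All groups overlapped. Its difference from marrow was 0.41 ± 0.36 in G-CSF blood, 0.57 ± 0.36 in CWHM-823 plus tGro-b blood and 0.29 ± 0.36 in AMD3100 blood, and it passed in no comparison under either fit. A second probe gave -0.39 ± 0.32 for AMD3100 blood against marrow. For G-CSF against AMD3100 blood it gave 0.68 ± 0.32, where the probe used gave 0.12. The second probe passed in neither (limma over all probes, adjusted p = 0.536 and 0.112). Scap, the SREBP escort, was at 2.05, 1.73 and 2.08 in G-CSF blood, 1.83, 1.39 and 1.76 in CWHM-823 plus tGro-b blood and 0.78, 1.14 and 1.52 in AMD3100 blood, against 1.21, 1.21 and 1.5 in PBS marrow. G-CSF arrays lay above the AMD3100 and marrow arrays; Scap rose against AMD3100 blood by 0.81 ± 0.25 (limma, adjusted p = 0.0344) and passed against marrow with the block only (0.64 ± 0.25, 0.0444). The call against AMD3100 blood was lost without G-CSF array 1 or 3 or AMD3100 array 1 or 2.

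Insig1, an SREBP2 target that restrains SREBP2, was at 0.12, 0.01 and 0.22 in G-CSF blood, 0.58, 0.25 and -0.32 in CWHM-823 plus tGro-b blood and -0.05, -0.47 and 0.08 in AMD3100 blood, against -0.32, -0.40 and -0.79 in PBS marrow. Its G-CSF arrays lay above all marrow arrays, but it passed in no comparison; the difference was 0.62 ± 0.27 (limma, adjusted p = 0.243, 0.0847 with the block). Insig2, the related retention protein, was at 0.42, 0.09 and 0.24 in G-CSF blood, -0.15, -0.05 and -0.07 in CWHM-823 plus tGro-b blood and -1.39, -0.56 and -0.76 in AMD3100 blood, against 0.23, -0.41 and 0.07 in PBS marrow. AMD3100 arrays were the 3 lowest of the 12 and did not overlap any other group. G-CSF blood exceeded AMD3100 blood by 1.15 ± 0.27 (limma, adjusted p = 0.0142; 0.0599 without G-CSF array 1), and a second probe gave 1.06 ± 0.28 (limma over all probes, adjusted p = 0.0217). Against marrow, AMD3100 blood had a difference of -0.87 ± 0.27 that missed the threshold in both fits (limma, adjusted p = 0.122, 0.0505 with the block).

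**Figure D4:**
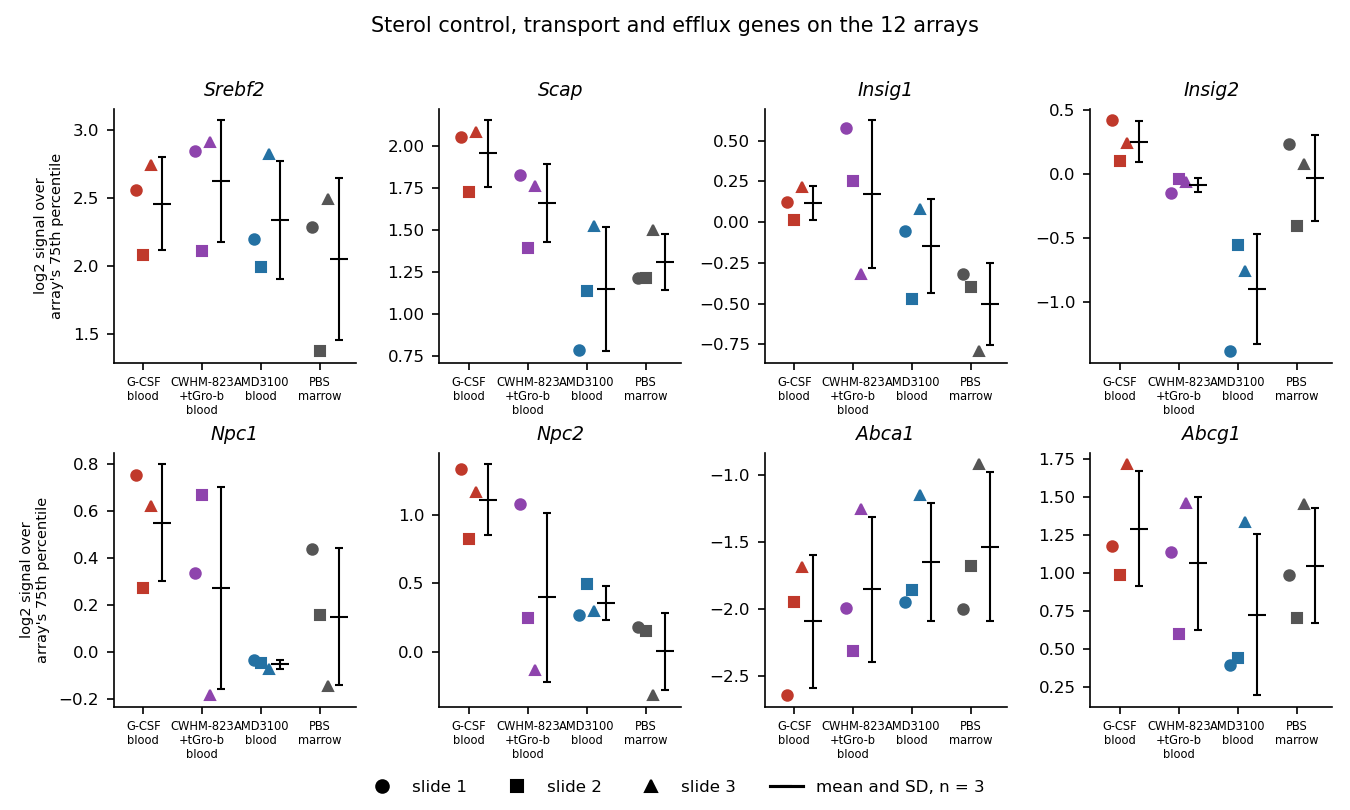
Log2 signal over the array's 75th percentile (y axis) of 8 control, transport and efflux genes in the 4 groups (x axis). Points are arrays, with 1 marker shape per slide, and bars give the mean and SD of 3 arrays; Insig2 was lowest on the 3 AMD3100 arrays (-1.39 to -0.56), and Abca1 overlapped between all groups.

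Sterol taken up in lipoproteins leaves the lysosome through the paired proteins Npc2 and Npc1, and Stard4 carries it through the cytosol. Npc2 was at 1.33, 0.83 and 1.17 in G-CSF blood, 1.08, 0.25 and -0.13 in CWHM-823 plus tGro-b blood and 0.27, 0.50 and 0.30 in AMD3100 blood, against 0.19, 0.15 and -0.32 in PBS marrow. Every G-CSF array lay above every AMD3100 and marrow array. The difference from marrow was 1.1 ± 0.31 and passed with the block only (limma, adjusted p = 0.102, 0.025 with the block). Against AMD3100 blood the G-CSF difference was 0.75 ± 0.31 (limma, adjusted p = 0.0755, 0.0278 with the block). Npc1 was at 0.75, 0.27 and 0.62 in G-CSF blood, 0.33, 0.67 and -0.19 in CWHM-823 plus tGro-b blood and -0.04, -0.05 and -0.07 in AMD3100 blood, against 0.44, 0.16 and -0.14 in PBS marrow. Its G-CSF arrays lay above the AMD3100 arrays, and this difference of 0.60 ± 0.27 passed only with the block (0.0401). Stard4 was at -0.37, -0.90 and 0.12 in G-CSF blood, -0.26, -0.98 and 0.16 in CWHM-823 plus tGro-b blood and -1.38, -1.46 and -0.79 in AMD3100 blood, against -0.34, -0.92 and -0.20 in PBS marrow. On all 3 slides the AMD3100 array was the lowest of the blood arrays and below marrow. With the block, Stard4 passed as lower in AMD3100 blood than in marrow (-0.72 ± 0.36, 0.0282) and as higher in G-CSF and in CWHM-823 plus tGro-b blood than in AMD3100 blood (0.00397 and 0.0248); without it none passed (limma, adjusted p = 0.309, 0.091 and 0.232 in that order).

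Neither exporter passed against marrow in either fit. Abca1, which loads cholesterol onto apolipoprotein A-I, was at -2.65, -1.95 and -1.68 in G-CSF blood, -1.99, -2.32 and -1.26 in CWHM-823 plus tGro-b blood and -1.95, -1.86 and -1.15 in AMD3100 blood, against -2.0, -1.68 and -0.92 in PBS marrow. All groups overlapped, and on each slide the G-CSF array was below the marrow array. Its difference was -0.56 ± 0.39 (limma, adjusted p = 0.401, 0.0709 with the block), which missed the threshold in both fits. Abcg1, which exports cholesterol to high-density lipoprotein, was at 1.18, 0.99 and 1.72 in G-CSF blood, 1.14, 0.59 and 1.46 in CWHM-823 plus tGro-b blood and 0.39, 0.44 and 1.34 in AMD3100 blood, against 0.99, 0.70 and 1.45 in PBS marrow. It overlapped between all groups, and its G-CSF difference from marrow was 0.25 ± 0.35. With the block Abcg1 passed as higher in G-CSF than in AMD3100 blood (0.57, blocked SE 0.16, limma, blocked adjusted p = 0.0148). In G-CSF blood against marrow the median log2 difference was 0.87 for the 17 synthesis genes, 0.51 for the 4 control genes, 0.40 for the 3 transport genes and -0.16 for the 2 exporters. The difference between these groups of genes was not tested.

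Ggps1, which makes the 20-carbon isoprenoid used to anchor small GTPases and is not on the way to sterols, was at 0.40, -0.43 and -0.21 in G-CSF blood, -0.60, -0.18 and -0.31 in CWHM-823 plus tGro-b blood and -1.04, -1.02 and -1.37 in AMD3100 blood, against 0.36, -0.13 and -0.39 in PBS marrow. The AMD3100 arrays were the 3 lowest, without overlap. AMD3100 blood differed from marrow by -1.09 ± 0.28 (limma, adjusted p = 0.0822, 0.0248 with the block), and G-CSF blood exceeded AMD3100 blood by 1.07 ± 0.28 (limma, adjusted p = 0.0209). Its other 2 probes did not share this: they gave 0.04 and 0.14 for AMD3100 blood against marrow and -0.13 and 0.25 for G-CSF against AMD3100 blood. The scanner output places the later-named of the 2 on mm9 chromosome 14, whereas the gene table has Ggps1 on chromosome 13. The level of Ggps1 therefore depends on the probe.

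The mean of CWHM-823 plus tGro-b blood lay between those of G-CSF blood and marrow for 12 of 17 synthesis genes. Its median difference from marrow over the 17 synthesis genes was 0.53, against -0.05 over all genes, and 14 of 17 were positive. Over the 15 synthesis genes above background on every array, without Cyp51 and Sc5d, it was 0.33, against -0.03 over all such genes. None of the 27 members passed (limma, 0.37% of all genes did). With the block Hmgcs1 and Sqle did, both higher, 7.41% of members against 1.08% of all genes (0.769% as higher). Arrays of CWHM-823 plus tGro-b blood lay above all marrow arrays for 6 members (22.2%), against 4.46% of all genes. Cyp51 and Sc5d, which passed the filter only through groups where they were high, are among the 6. Without marrow array 3 the synthesis median was 0.52, and again none passed. Array 1 of CWHM-823 plus tGro-b blood was the high one: the synthesis median was 0.09 there and -0.52 and -0.54 on the other 2. The 7 measured of 9 listed erythroid markers had a summed signal of 13.1 to 23.3 in this group and 6.01 to 8.39 in marrow. Of these only Hba-a1, an alpha globin, passed (4.46 ± 0.34, limma, adjusted p = 7.36e-05), and the median difference over the 7 was -0.06. Mast cell and basophil markers summed to 4.01 to 5.95 in this group and 1.36 to 2.56 in marrow. Their part in the result was not tested.

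AMD3100 blood, taken 1 hour after the drug, had a median difference from marrow of 0.06 over the synthesis genes, against 0.11 over all genes, with 9 positive and 8 negative. The sign of that median depends on single arrays: it was -0.06 without marrow array 2, just below 0 without AMD3100 array 3, 0.19 without AMD3100 array 2 and 0.10 without marrow array 3. None of the members passed without marrow array 3. No member passed (limma, 1.42% of all genes did). With the block Hmgcs1 passed as higher and Ggps1 and Stard4 as lower (11.1% of members, against 13.5% of all genes, 5.82% as higher and 7.69% as lower). The share of members that passed was thus near that of all genes. Mast cell and basophil markers (4 measured of 6) summed to 2.95 to 11.8 in AMD3100 blood and 1.36 to 2.56 in marrow, with 2 that rose. Their sum was thus above marrow in AMD3100 blood as in the other blood groups. Erythroid markers (7 measured of 9) summed to 3.49 to 4.94 in AMD3100 blood and 6.01 to 8.39 in marrow. None of these passed without the block, and 3 were lower with it. The part of these cells in the result was not tested.

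Between the treatments, the contrast of G-CSF with AMD3100 blood was the widest. Of 27 members, 9 rose in G-CSF blood and none fell: Acat2, Pmvk, Fdps, Sqle, Msmo1, Sc5d, Ggps1, Scap and Insig2. That share of 33.3% was near the 31.1% of all genes that passed, but of all genes 12.6% passed as higher and 18.4% as lower. Among the 9, Sc5d had passed the filter only through groups where it was high. With the block 19 members passed, all higher (70.4%), against 62.6% of all genes, 23.0% as higher. The arrays of the 2 groups did not overlap, with G-CSF higher, for 15 members (55.6%) and 19.8% of all genes. The median over all genes was -0.37 and moved by 0.26 under quantile normalization; the synthesis genes lay 1.07 above it, and 0.93 above it after quantile normalization. Without G-CSF array 1 none of the members passed and without G-CSF array 2, 14 did; without AMD3100 array 1 or 2 and without G-CSF array 3 there were 4 or 5. The AMD3100 arrays were the dimmest, with a 75th percentile of 1146 to 1581, against 2188 to 2724 in G-CSF blood. The duration of treatment differed (1 hour against 5 days). Dendritic cell markers (6 measured of 7) summed to 27.8 to 37.4 in G-CSF blood and 50.3 to 70.4 in AMD3100 blood, with 5 lower in G-CSF blood. Among the 6 LSK markers 4 were higher in G-CSF blood and 1 was lower. The lower one, Flt3, is on the dendritic cell list too and counts among the 5 there. B cell markers (5 measured of 6) had 3 lower and 0 higher. Their part in the result was not tested.

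G-CSF and CWHM-823 plus tGro-b blood did not differ past the threshold in any member without the block (limma, 0.626% of all genes passed). With the block Ebp did, against 2.2% of all genes, 1.12% as higher. The median over the synthesis genes was 0.34. Fdps came closest, with 0.91 ± 0.29 (limma, adjusted p = 0.289, 0.0573 with the block). Between CWHM-823 plus tGro-b and AMD3100 blood no member passed without the block (limma, 0.147% of all genes did). Sqle, Cyp51 and Stard4 passed as higher with it (11.1%, against 16.8% of all genes, 8.43% as higher). Cyp51 had passed the filter only through the CWHM-823 plus tGro-b arrays, where it was high. The 3 comparisons with marrow share its arrays, and the contrasts between treatments share arrays too, so they are not independent of each other.

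**Figure D5:**
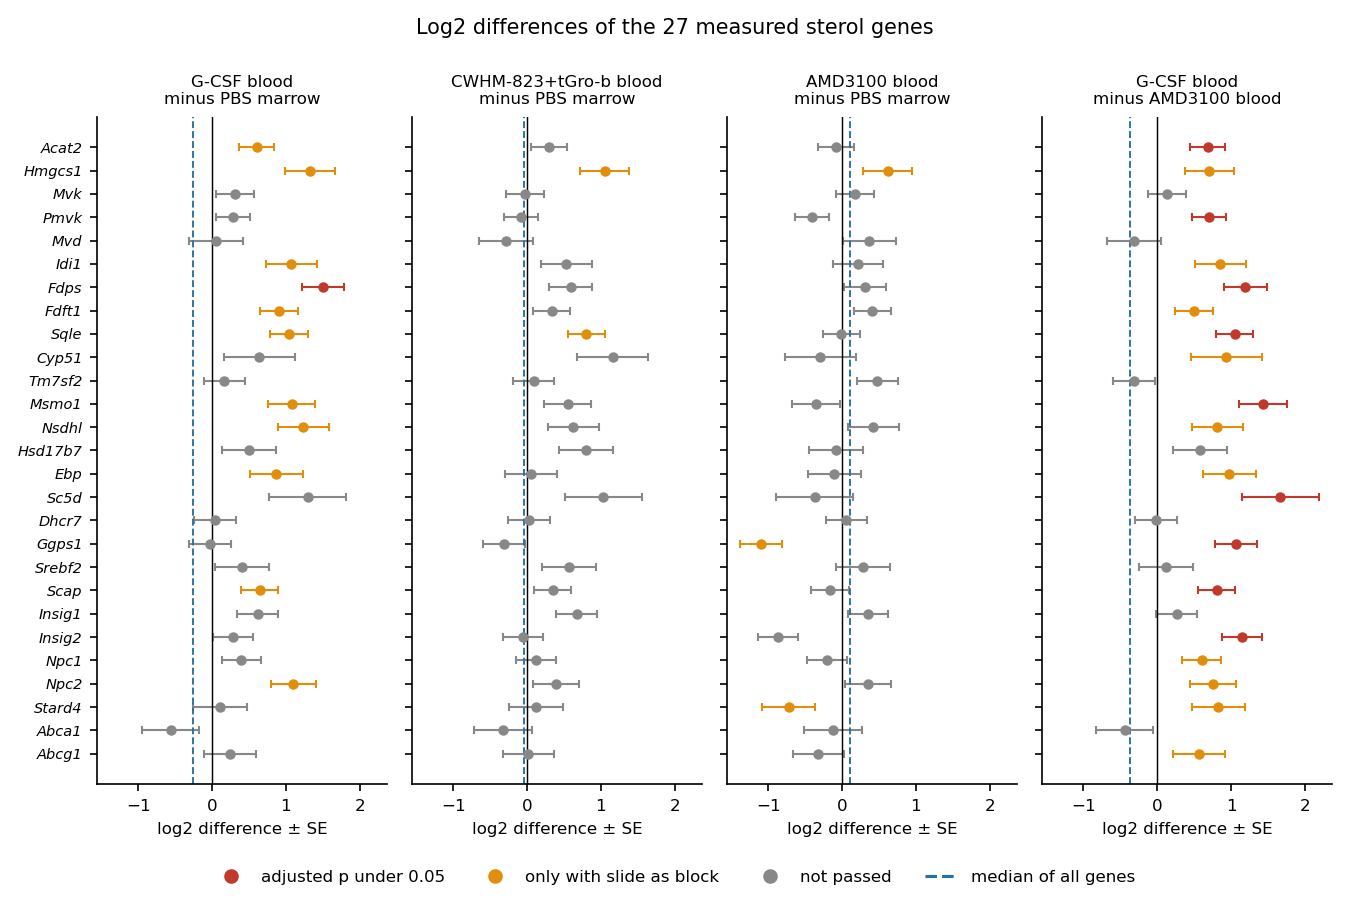
Log2 difference ± SE (x axis) of the 27 measured members (y axis) for 3 comparisons with marrow and for G-CSF against AMD3100 blood, 3 arrays a group; colours mark members that passed (limma, adjusted p under 0.05), that passed only with the slide as a block, or that did not, and the dashed line is the median of all genes. Differences of synthesis genes from marrow centred on 0.87 in G-CSF blood, 0.53 in CWHM-823 plus tGro-b blood and 0.06 in AMD3100 blood. The SE is from the fit without the block for every member.

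Other genes of sterol supply were looked up by list in G-CSF blood against marrow. Among lipoprotein uptake receptors, Vldlr, which binds apolipoprotein E rich particles, rose in G-CSF blood by 2.50 ± 0.26 against marrow (limma, adjusted p = 0.00045), at 1.89, 1.28 and 1.72 in G-CSF blood, -0.55, -1.05 and -0.65 in CWHM-823 plus tGro-b blood and -1.25, -1.56 and -1.5 in AMD3100 blood, against -0.61, -0.76 and -1.26 in PBS marrow. Its G-CSF arrays stood clear of all 9 others. Stab1, a scavenger receptor, passed as lower against marrow with the block only (-1.27 ± 0.48, limma, blocked adjusted p = 0.0239). In this comparison 1.74% of all genes passed without the block and 19.5% with it, 8.24% as higher, against which the counts that follow are set. Of 7 measured of 10 lipoprotein uptake receptors, 1 passed, as higher. With the block 4 were higher and 1 was lower, and the median was 0.76. Of 10 measured of 12 LXR receptors and targets, none passed against marrow without the block (2 higher with it, Lpcat3 and Pltp), and the median was 0.14. Of 15 measured fatty acid and SREBP1 genes, none passed against marrow and 3 did with the block (Elovl5, Elovl6 and Mid1ip1), all higher, with a median of 0.45. Lists of SREBP processing (13 measured), isoprenoid use (15), sterol ester enzymes (5) and sterol carriers (17) had 0, 0, 0 and 1 genes higher against marrow, and 4, 2, 1 and 6 with the block, where 1 sterol carrier was lower. The gene that passed was Lamp2, a lysosomal membrane protein (1.23 ± 0.27, limma, adjusted p = 0.0458).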

How the data were processed

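The 12 one-colour arrays were read. The intensities were deposited as scanner output: per the file headers, Agilent Feature Extraction 11.5.1.1 had subtracted background and written a processed signal per spot. From 43020 spots, 39429 probes were formed by averaging after outlier spots were left out. Signals were divided by the array's 75th percentile and taken as log2. A probe was kept if every array of some group had it well above background (29497 probes), with 1 probe for each of 23795 genes. Groups were compared with limma 3.58.1 in R 4.3.3 (lmFit and eBayes over all 12 arrays, 2-sided, Benjamini-Hochberg over all genes), tested on simulated data. The authors' deposited table of normalized intensities and the raw mean intensities, per the file headers, served as alternatives. Same-numbered arrays share a slide: the correlation of their deviations from group means was 0.26 to 0.616 in 18 pairs, so the slide was also fitted as a block. Array values are given for members that passed in any comparison in either fit and for control, transport and efflux genes, and at most 4 genes are named from each other list. The members and lists were chosen with earlier results of these data known. Some other genes of sterol supply are not reported here.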

Additional observations from a re-analysis of the deposited data

How the results depend on the processing

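With the replicate block, the number of the 27 members that passed was 11 in G-CSF blood against marrow (1 without it), 3 in AMD3100 blood against marrow (0), 2 in CWHM-823 plus tGro-b blood against marrow (0), 19 in G-CSF against AMD3100 blood (9), 1 in G-CSF against CWHM-823 plus tGro-b blood (0) and 3 in CWHM-823 plus tGro-b against AMD3100 blood (0). Of all genes 19.5, 13.5, 1.08, 62.6, 2.2 and 16.8% passed with the block, in that order. With the replicate block and quantile normalization 9, 4, 2, 17, 0 and 5 members passed in the same order. The shares of all genes there were 10.9, 18.1, 1.13, 52, 1.53 and 18.6%. In G-CSF blood against marrow, 3 of 27 members passed after normexp background correction (1.48% of all genes). With probes above background on every array 3 of 25 did (2.41% of all genes). In AMD3100 blood against marrow, 1 passed, as lower, after quantile normalization and 1 in the authors' table. Leaving out 1 array in turn gave 0 to 2 in G-CSF blood against marrow (2 without G-CSF array 2) and 0 to 14 in G-CSF against AMD3100 blood. The cause was not tested. No called value changed sign. The synthesis median of AMD3100 blood against marrow, 0.06, went to -0.06 without marrow array 2 and to just below 0 without AMD3100 array 3, to 0.19 without AMD3100 array 2 and 0.18 with probes above background on every array; less the median of all genes it was -0.05 and, in the authors' table, 0.05. The median in G-CSF blood was 0.87 against marrow, 0.58 after normexp and 0.64 over the mean of a gene's probes, and 0.71 against AMD3100 blood, 0.82 after quantile normalization with or without the block. Of the values for single genes 660 stayed on their side of the threshold, 71 came to pass and 44 no longer did. Over all genes the block gave 4647 calls against 413, 3215 against 338, 257 against 88, 14903 against 7390, 523 against 149 and 4007 against 35, for G-CSF, AMD3100 and CWHM-823 plus tGro-b blood against marrow, then G-CSF against AMD3100 and against CWHM-823 plus tGro-b blood, then CWHM-823 plus tGro-b against AMD3100 blood. AMD3100 blood against marrow had 748 calls after quantile normalization, 169 after normexp, 547 in the authors' table and 172 with no filter. The authors' table gave 267 in G-CSF blood against marrow and 99 against CWHM-823 plus tGro-b blood; CWHM-823 plus tGro-b against AMD3100 blood had 108, 9, 8 and 5 after quantile normalization, normexp, in the authors' table and with probes above background on every array. The share of calls that were higher was 68.0% in G-CSF blood against marrow and 80.1 to 82.8% under the other scalings, and 40.7% in G-CSF against AMD3100 blood, 55.6% after quantile normalization and 54.7% in the authors' table; in CWHM-823 plus tGro-b against AMD3100 blood it was 80.0%, and 100% of 9 calls after normexp. Lss, Cyp51, Sc5d and the second Nsdhl probe were limited by a signal near background.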
